A study of Mus musculus with 96 samples.

Results

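The mir-199 and mir-214 hairpins of mouse liver are described here across 96 microRNA libraries. They are 4 of the 1187 hairpins in the deposited table, mir-199a-1 (MI0000241), mir-199a-2 (MI0000713), mir-199b (MI0000714) and mir-214 (MI0000698). They were chosen by their levels in Q92 and Q140 livers at 10 months, where several were higher than in controls, so their values in those mice at that age are given below as a description, without a test. All 4 passed the abundance filter of at least 1 CPM (a count scaled to the library total) in at least 8 libraries.

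The livers came from mice of the Htt allelic series, labelled C57BL/6; the study's methods name C57BL/6J dams. Htt encodes huntingtin, and an expanded CAG repeat in its first exon causes Huntington's disease. Heterozygous knock-in mice carried 1 mouse Htt allele and 1 engineered allele, in which human HTT exon 1 held 20 (Q20), 50 (Q50), 92 (Q92) or 140 (Q140) CAG repeats, in the endogenous locus and so in all tissues. Wild-type (WT) mice of 2 lines, Q20 and Q50, were also taken. The Q92 and Q140 mice had no WT mice of their own line here, and the labels state that they were housed with mice of their own genotype. By these labels genotype and housing cannot be told apart in these mice, whereas the study's methods describe final cages that mixed heterozygous and WT mice of 1 sex. Each of the 6 kinds of mice was sampled at 6 and 10 months, with 4 males and 4 females per age, and no mouse was sampled at both ages. WT of both lines and Q20 served as controls, 24 mice at each age.

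MicroRNAs are short RNAs cut from hairpin precursors. They lower the output of messenger RNAs that pair with the seed, bases 2 to 8 of the mature strand. The genes of mir-199a-2 and mir-214 lie within Dnm3os, a long non-coding RNA of mesenchymal cells. In liver these microRNAs are known from hepatic stellate cells, the vitamin A-storing cells that turn into collagen-producing myofibroblasts, and are known to rise in fibrotic liver, while mature miR-199a-3p is also abundant in healthy liver. Among their known targets are Cav1 for miR-199a-5p and Mtor and Met for miR-199a-3p.

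The mature strands are shown because they decide what the read counts can separate. Sequences and coordinates are from RefSeq on the GRCm38.p6 assembly, and the capitals mark the seed. All 4 hairpins were looked up there by name, and their lengths were those implied by the deposited counts and FPKM. The pairing of name and hairpin was not checked in any other way.
miR-199a-5p (from mir-199a-1 and mir-199a-2): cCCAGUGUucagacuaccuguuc
miR-199a-3p (from mir-199a-1 and mir-199a-2): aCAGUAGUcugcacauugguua
miR-199b-3p (from mir-199b): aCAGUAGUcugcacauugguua
miR-214-5p (from mir-214): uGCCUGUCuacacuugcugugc
miR-214-3p (from mir-214): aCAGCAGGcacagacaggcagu
The 3p strands of the 3 mir-199 hairpins are the same letters from end to end, and so share a seed. The 5p strand is the same for mir-199a-1 and mir-199a-2. The stretch of the mir-199b hairpin from base 26 to base 48 differs from miR-199a-5p by 1 substitution, C10U, counted from 1 at the 5′ end of miR-199a-5p and capitalised in the next line.
mir-199b, bases 26 to 48: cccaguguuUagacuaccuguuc
The strands of mir-214 share neither seed with the mir-199 strands.

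The hairpins lie at 3 places in the genome. The genes over them were found by coordinates alone, and the strands of these genes were not compared with those of the hairpins. The 70-nucleotide (nt) mir-199a-1 hairpin is on the minus strand at chr9:21496495-21496564, within Dnm2. The 110-nt mir-199b hairpin is on the plus strand at chr2:32318460-32318569, within Dnm1. The 110-nt mir-199a-2 and mir-214 hairpins are on the plus strand at chr1:162217814-162217923 and chr1:162223368-162223477, with 5444 bases between them, and both lie within Dnm3os and within Dnm3. Dnm1, Dnm2 and Dnm3 encode dynamins, the GTPases that pinch off vesicles from membranes.

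The deposited values carry a trace of the shared strands. The estimated count of mir-199a-1, of mir-199a-2 and of mir-199b was not a whole number in any of the 96 libraries, yet the sum of the 3 was whole in 96 of 96 (tolerance 0.001). The count of mir-214 was whole in all 96. No source used here says how the authors split the mir-199 reads, so the levels of the single mir-199 hairpins are uncertain, and the sum of the 3 is given beside them. mir-199a-1 held 96.8% ± 0.686 of the sum (SD, n = 96 libraries), mir-199a-2 2.21% ± 0.498 and mir-199b 1.02% ± 0.403.

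Per length, mir-199a-1 was the most abundant of the 4. Its deposited FPKM was 22250 ± 5000 (SD, n = 96), against 673 ± 179 for mir-214, 323 ± 105 for mir-199a-2 and 158 ± 89.4 for mir-199b. mir-199a-1 lay above mir-214, and mir-214 above mir-199a-2, in 96 of 96 libraries. mir-199a-2 lay above mir-199b in 94 of 96. By mean FPKM the 4 ranked 40th, 147th, 175th and 199th of all hairpins. The least abundant, mir-199b, rested on 9.75 to 290 estimated counts per library, against 123 to 707 counts for mir-214 and 3326 to 15294 for mir-199a-1.

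The estimated counts of a library summed to between 2195052 and 6662671 (median 5149567). At 10 months 4 libraries stood apart from the rest in connectivity, the standardized sum of their similarities to the other libraries (Z.k under -5). They comprised 2 Q92 livers (female replicate 1, male replicate 2) and the male replicate 3 of each WT line. They were left out of the fits, and no library of 6 months was. Levels below are CPM of the column sum in all 96 libraries unless said otherwise, and those of 10 months are followed by values without the 4 libraries (the kept mice) where these differ. Markers of other cell types were not matched here, because the tables used here do not pair the hairpin accessions with names. The part of cell composition in the results was therefore not tested.

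**Figure D1:**
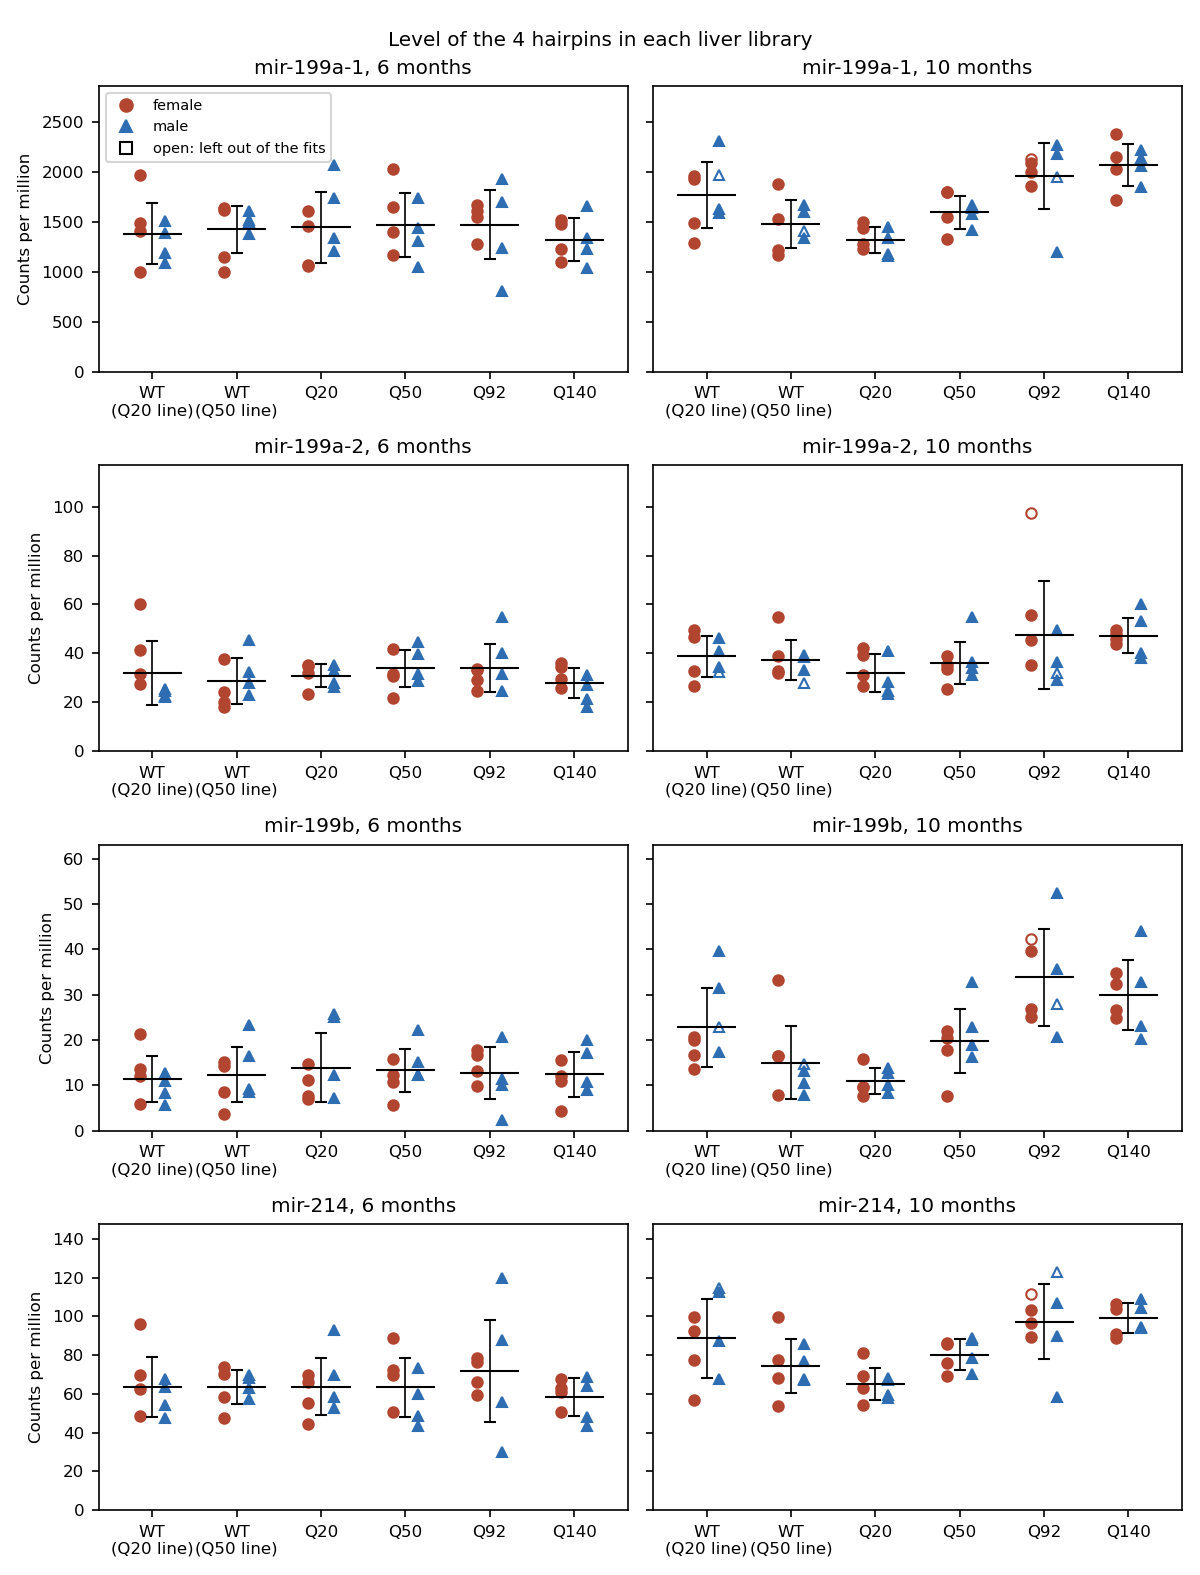
Level of each hairpin in CPM, the count scaled to the library total (vertical axis, from 0) in every library, by kind of mouse (horizontal axis), at 6 months (left) and 10 months (right). Circles are females, triangles are males, open symbols are the 4 libraries left out of the fits, and the line and bar give the mean and SD of 8 mice. At 6 months the kinds of mice overlap throughout, and at 10 months the Q92 and Q140 mice sit high and the Q20 mice low.

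At 10 months the Q92 and Q140 livers held more of all 4 hairpins than the mean of the controls, which is what they were chosen for. In whole liver, more cells of a type and more RNA per cell cannot be told apart. mir-199a-1 ran from 1156 to 2308 CPM in the 24 controls, with a median of 1470. It ran from 1199 to 2264 CPM in the 8 Q92 mice, with a median of 2045, and from 1713 to 2382 CPM in the 8 Q140 mice, with a median of 2099. The groups overlapped, and 1 of 8 Q140 mice and 0 of 8 Q92 mice lay above the highest control. Against the mean of controls of their own sex, 7 of 8 Q92 and 8 of 8 Q140 mice were higher. In the kept mice 5 of 6 Q92 mice were higher, and the mean was 1930 ± 385 CPM in Q92 (SD, n = 6) against 1506 ± 300 in the controls (n = 22).

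mir-214 was also higher in both kinds of mice than in the controls by median. Its level ran from 53.6 to 114.8 CPM in the controls, with a median of 68.6. It ran from 58.4 to 122.8 CPM in Q92, with a median of 99.7, and from 88.7 to 108.9 CPM in Q140, with a median of 99.3. Of the Q140 mice 8 of 8 lay above the control mean of their sex, as did 7 of 8 Q92 mice, and 1 of 8 Q92 mice lay above the highest control. In the kept mice the highest control was at 112.3 CPM, 0 of 6 Q92 mice lay above it, and the Q92 median was 93.0 CPM. The Q92 mouse that did not was male replicate 4, the lowest Q92 mouse at 10 months for all 4 hairpins.

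mir-199b had the widest gap. It ran from 7.56 to 39.7 CPM in the controls, with a median of 14.2. It ran from 20.6 to 52.5 CPM in Q92, with a median of 31.8, and from 20.2 to 44.0 CPM in Q140, with a median of 29.5. All 8 Q92 and all 8 Q140 mice were above the control mean of their sex, and 3 and 1 of them, respectively, above the highest control. In the kept mice 6 of 6 Q92 mice were above the control mean of their sex and 2 of 6 above the highest control, with a median of 31.3 CPM against 13.7 in the controls. As a share of the mir-199 sum, mir-199b took 1.65% ± 0.347 in Q92 and 1.41% ± 0.402 in Q140 (SD, n = 8 each), against 0.801% ± 0.180 in Q20, 0.960% ± 0.389 in WT of the Q50 line and 1.23% ± 0.333 in WT of the Q20 line. In the kept mice the share was 1.65% ± 0.382 in Q92 (n = 6), 0.954% ± 0.420 in WT of the Q50 line and 1.24% ± 0.357 in WT of the Q20 line (n = 7 each).

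mir-199a-2 ran from 23.4 to 54.9 CPM in the controls, with a median of 33.9, from 29.1 to 97.4 CPM in Q92, with a median of 41.1, and from 37.9 to 60.2 CPM in Q140, with a median of 46.9. The highest value, 97.4 CPM, was that of Q92 female replicate 1, 1 of the 4 libraries that stood apart. mir-199a-2 was above the control mean of their sex in 5 of 8 Q92 mice and in 8 of 8 Q140 mice. In the kept mice it was so in 4 of 6 Q92 mice, the highest Q92 mouse was at 55.7 CPM, and the ratio of the Q92 mean to the control mean was 1.15, against 1.32 over all libraries.

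In the fit with sex and lane tag, the log2 difference of Q92 from the controls at 10 months was 0.35 ± 0.11 (SE) for mir-199a-1, 0.19 ± 0.13 for mir-199a-2, 1.15 ± 0.25 for mir-199b and 0.29 ± 0.11 for mir-214. For Q140 it was 0.43 ± 0.09, 0.36 ± 0.11, 0.87 ± 0.22 and 0.38 ± 0.10 in the same order. The slope on CAG length, per 100 repeats, was 0.33 ± 0.07, 0.25 ± 0.09, 0.77 ± 0.18 and 0.29 ± 0.07. The sum of the mir-199 hairpins gave 0.36 ± 0.11 for Q92 and 0.43 ± 0.10 for Q140. Over all 383 hairpins fitted, the share past an edgeR adjusted p of 0.05 was 1.04% (Q92), 1.31% (Q140) and 2.09% (CAG length). Nothing is read from these shares, since the members were chosen on these mice. The median log2 difference of the 4 members was 0.32 for Q92 and 0.40 for Q140, beside 0.00 and -0.02 over all hairpins. The choice of the members favours such a gap, so nothing is read from it either.

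How large the differences at 10 months were depended on which controls stood beside them. Against WT mice alone the log2 difference of Q140 was 0.32 for mir-199a-1, 0.26 for mir-199a-2, 0.64 for mir-199b and 0.28 for mir-214. Against Q20 mice alone it was 0.61, 0.54, 1.38 and 0.57. For Q92 the values were 0.25, 0.09, 0.92 and 0.19 against WT alone and 0.50, 0.33, 1.62 and 0.44 against Q20 alone. With all libraries kept, Q92 gave 0.31, 0.30, 1.11 and 0.31. The small value of mir-199a-2 in Q92 was 0.11 without Q92 female replicate 2. The lane tag of the labels was taken for the batch. Within lane tags with at least 2 mice on each side, the Q140 differences were 0.25 to 0.89 for mir-199a-1, mir-199a-2 and mir-214 and 0.79 to 1.13 for mir-199b, in all 3 tags. The Q92 differences were above 0 in both tags that held kept Q92 mice, with the exception of mir-199a-2 in tag 7, at -0.02 for 2 against 4 mice.

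**Figure D2:**
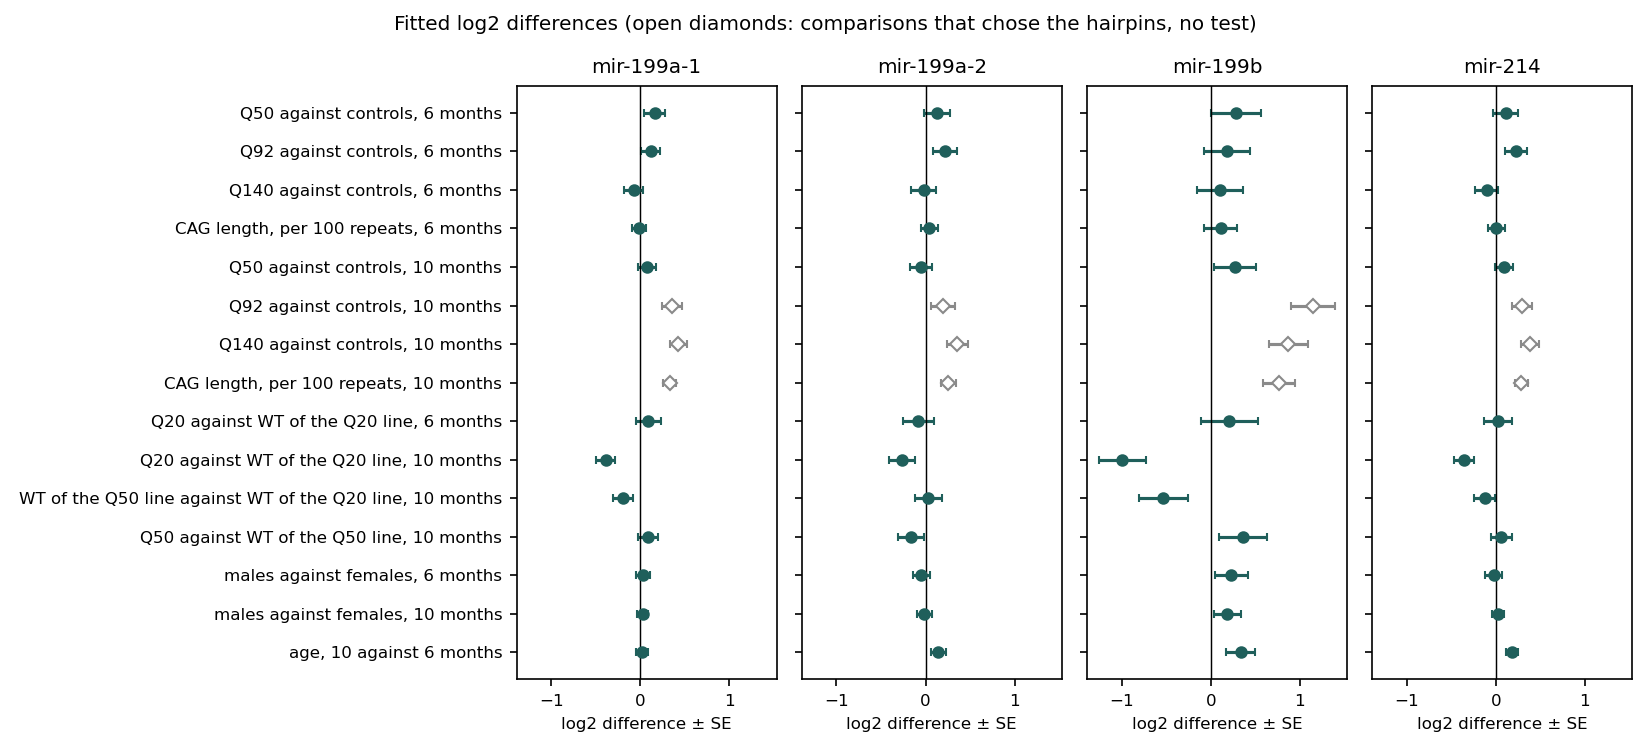
Fitted log2 difference (horizontal axis, points) with its SE (bars) of each hairpin in 15 comparisons (vertical axis). Open diamonds are Q92 and Q140 against controls at 10 months, which chose the hairpins, and the 10-month CAG slope, which used these mice too. These 3 carry no test, and filled circles are tested comparisons. The largest tested difference was that of mir-199b in Q20 against WT of the Q20 line at 10 months, -0.99, which was not called.

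The first tested question was whether the hairpins differed between the same genotypes at 6 months, in mice that played no part in their choice. They did not pass the test. None of the 4 members was called by edgeR's quasi-likelihood test in Q50, Q92 or Q140 against the controls or on CAG length. Of all 374 hairpins tested, 0% were called in Q50, 0.267% in Q92, 0% in Q140 and 0% with the CAG slope. Also 0 members had an edgeR unadjusted p under 0.05. Of the 374 hairpins, 7 had one in Q50, 29 in Q92, 5 in Q140 and 8 with the CAG slope. DESeq2 called 0 members (its share over all hairpins was not kept).

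mir-199a-1 had 1416 ± 289 CPM in the 6-month controls (SD, n = 24), 1471 ± 321 in Q50, 1470 ± 348 in Q92 and 1321 ± 216 in Q140 (n = 8 each). mir-214 had 63.7 ± 12.8 CPM in the controls, 63.3 ± 15.4 in Q50, 71.7 ± 26.3 in Q92 and 58.3 ± 9.66 in Q140. mir-199a-2 had 30.4 ± 9.34, 33.8 ± 7.64, 33.9 ± 9.85 and 27.9 ± 6.15 CPM, and mir-199b had 12.5 ± 6.19, 13.3 ± 4.78, 12.8 ± 5.75 and 12.5 ± 4.97 CPM. All these groups overlapped.

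For Q140 at 6 months the 95% interval of the log2 difference ran from -0.29 to 0.14 for mir-199a-1, from -0.29 to 0.25 for mir-199a-2, from -0.40 to 0.61 for mir-199b and from -0.35 to 0.15 for mir-214. For Q92 it ran from -0.10 to 0.33, from -0.04 to 0.48, from -0.32 to 0.68 and from -0.02 to 0.46. All of these intervals included 0. The difference between the ages itself was not tested for these genotypes, as it would use the values that chose the members. The lowest adjusted p of any member in Q92 at 6 months over the alternatives was 0.363, for mir-214 without Q92 male replicate 2, and the highest was 0.997.

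The Q92 males of 6 months held both ends of the mir-214 range at that age, with 29.98 CPM in replicate 2 and 119.95 CPM in replicate 3, and 87.9 and 55.7 CPM in replicates 1 and 4. Replicate 2 was the lowest of all 96 libraries in mir-214, and also the lowest of all 96 libraries in mir-199a-1, at 811 CPM, and in mir-199b, at 2.38 CPM, from 9.75 estimated counts. It was not among the libraries that stood apart in connectivity.

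The Q50 livers at 10 months were compared with the same control mice as Q92 and Q140, so this comparison is not independent of the choice. 0 of 4 members were called, where 0% of 383 hairpins were. At an edgeR unadjusted p under 0.05 there were also 0 members, beside 9 of the 383 hairpins. DESeq2 called 0 members (share over all hairpins not kept). mir-199a-1 had 1594 ± 165 CPM in Q50 (SD, n = 8) against 1521 ± 302 in the controls (n = 24), and mir-214 had 80.2 ± 7.91 against 76.0 ± 17.5. mir-199b had 19.8 ± 7.03 CPM against 16.2 ± 8.39 and mir-199a-2 36.1 ± 8.56 against 35.9 ± 8.26. The kept controls (n = 22) had 1506 ± 300, 74.6 ± 16.1, 16.0 ± 8.65 and 36.5 ± 8.41 CPM in the same order of hairpins. The fitted log2 differences were 0.08 ± 0.10 (SE) for mir-199a-1, -0.05 ± 0.12 for mir-199a-2, 0.27 ± 0.23 for mir-199b and 0.09 ± 0.10 for mir-214. Against WT of the Q50 line alone, which shares the line and not the repeat, the log2 differences at 10 months were 0.09 ± 0.11, -0.16 ± 0.15, 0.36 ± 0.27 and 0.06 ± 0.12 in the same order, with edgeR adjusted p of 0.98 for each.

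Within the controls, Q20 mice, which carry a repeat of normal length, were compared with WT of their own line at 10 months. No member passed the test. These mice are the controls against which the members were chosen, so this comparison, too, is not independent of the choice. mir-199a-1 was at 1178, 1341, 1448 and 1156 CPM in the Q20 males and at 1279, 1223, 1494 and 1434 CPM in the Q20 females. In WT of the Q20 line it was at 1588, 2308, 1969 and 1625 CPM in males and 1289, 1928, 1492 and 1954 CPM in females. The 2 kinds of mice overlapped, and 8 of 8 Q20 mice were below the mean of the kept WT mice of their sex.

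mir-199b was at 12.6, 8.32, 13.8 and 10.1 CPM in the Q20 males and 9.60, 7.56, 15.8 and 9.65 CPM in the Q20 females. WT of the Q20 line had 17.3, 39.7, 22.8 and 31.5 CPM in males and 13.6, 19.9, 16.7 and 20.6 CPM in females. The highest Q20 female and the highest Q20 male lay above the lowest WT female, and again 8 of 8 Q20 mice were below the kept WT mean of their sex. For mir-214 the count was 8 of 8, with a mean of 65.0 ± 8.38 CPM against 88.6 ± 20.5 (SD, n = 8 each) and 84.8 ± 18.9 in the 7 kept WT mice, and for mir-199a-2 it was 5 of 8.

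The log2 difference of Q20 from WT of the Q20 line at 10 months was -0.39 ± 0.11 (SE) for mir-199a-1, -0.26 ± 0.14 for mir-199a-2, -0.99 ± 0.26 for mir-199b and -0.36 ± 0.12 for mir-214. After adjustment over all 383 hairpins no member was called (edgeR adjusted p 0.11, 0.578, 0.11 and 0.204 in the same order), and neither was any other hairpin (0%), while 3 of the 4 members and 39 of all hairpins had an unadjusted p under 0.05. DESeq2 also called 0 members (share over all hairpins not kept), with an adjusted p of 0.0512 for mir-199b. Over the alternatives the adjusted p of mir-199b ran from 0.0512 to 0.646, and the highest value was reached when male replicate 2 of the Q20 line's WT mice was left out, where its log2 difference was -0.77. WT of the Q50 line had log2 differences from WT of the Q20 line of -0.20 ± 0.11 for mir-199a-1, 0.03 ± 0.15 for mir-199a-2, -0.53 ± 0.28 for mir-199b and -0.13 ± 0.12 for mir-214, and edgeR adjusted p of 0.442 to 0.944.

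At 6 months, in mice that played no part in the choice, the log2 difference of Q20 from WT of the Q20 line was 0.09 ± 0.14 (SE) for mir-199a-1, -0.08 ± 0.17 for mir-199a-2, 0.21 ± 0.32 for mir-199b and 0.02 ± 0.16 for mir-214, with edgeR adjusted p of 0.882 to 0.96, and for each hairpin 4 of 8 Q20 mice lay below the same-sex WT mean. The change of this difference between the ages was not tested. By median at 10 months, mir-199a-1 ordered the mice as Q140, Q92, WT of the Q20 line, Q50, WT of the Q50 line and Q20, at 2099, 2045, 1776, 1605, 1467 and 1310 CPM. Each neighbouring pair in this order overlapped. In the kept mice the order was the same, the medians of WT being 1625 CPM (Q20 line) and 1524 CPM (Q50 line).

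Males and females did not differ detectably in the members, although many other hairpins did. 0 of 4 members were called at either age by edgeR. Over all hairpins, 38.2% of 374 were called at 6 months and 45.4% of 383 at 10 months. An edgeR unadjusted p under 0.05 was reached by 0 members, beside 174 hairpins at 6 months and 200 at 10 months. DESeq2 called 0 members (its share over all hairpins was not kept). At 6 months mir-199a-1 stood at 1416 ± 298 CPM in the 24 males and 1420 ± 287 CPM in the 24 females (SD), and at 10 months at 1699 ± 362 against 1695 ± 350, or 1688 ± 374 in the 21 kept males and 1677 ± 345 in the 23 kept females. mir-214 had 62.8 ± 18.5 against 65.2 ± 12.7 CPM and 84.9 ± 19.4 against 83.3 ± 17.0 CPM. The log2 difference of males from females for mir-214 was -0.03 at 6 months (95% interval -0.20 to 0.15) and 0.02 at 10 months (-0.11 to 0.15). The widest intervals were those of mir-199b, -0.13 to 0.59 and -0.11 to 0.48. The sex by age interaction was called in 0 of 4 members and in 0% of 408 hairpins, with edgeR adjusted p of 0.876 to 0.982 for the members. An edgeR unadjusted p under 0.05 was reached by 0 members, beside 51 of the 408 hairpins. DESeq2 called 0 members (share over all hairpins not kept).

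**Figure D3:**
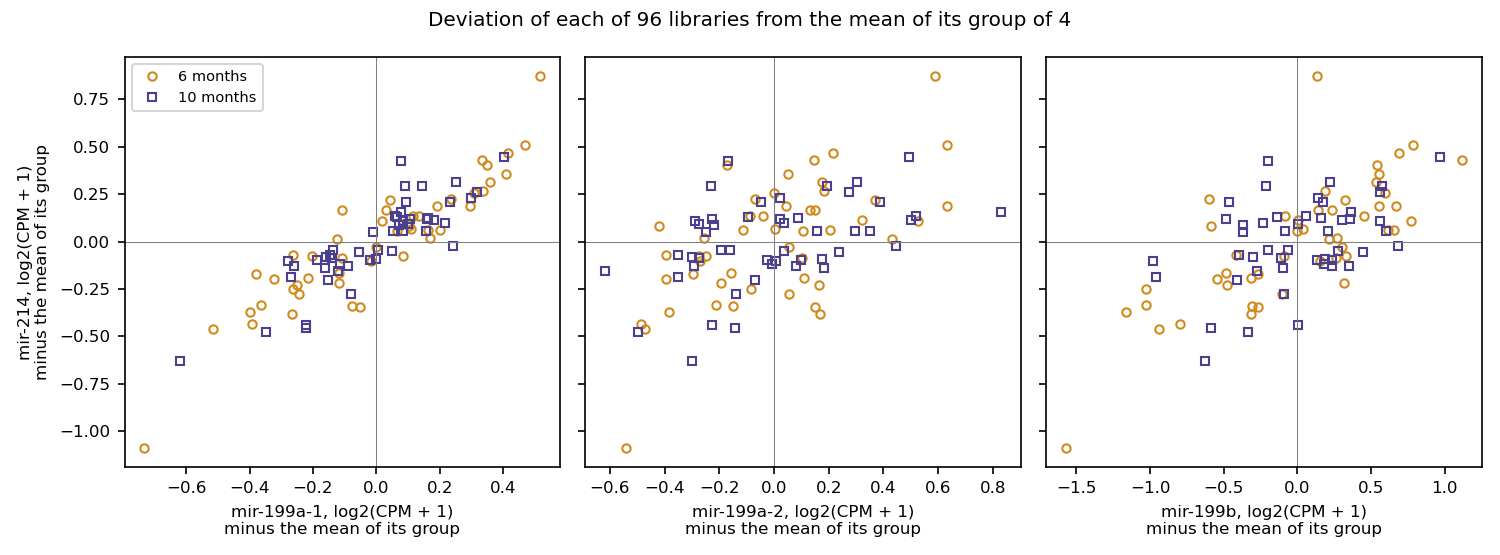
Deviation of mir-214 (vertical axis) against that of mir-199a-1, mir-199a-2 and mir-199b (horizontal axes), each as log2(CPM + 1) minus the mean of the library's group of 4 mice. Points are the 96 libraries, circles at 6 months and squares at 10 months. The mir-199a-1 points lie close to a line (Pearson r = 0.89), and those of mir-199a-2 scatter more widely (r = 0.54).

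Age was compared in WT, Q20 and Q50 mice only, because the Q92 and Q140 mice of 10 months chose the members. The 10-month WT and Q20 mice of this comparison were the controls of that choice. mir-214 had 63.6 ± 13.2 CPM at 6 months and 77.1 ± 15.7 CPM at 10 months (SD, n = 32 each), with a range of 43.1 to 96.1 and of 53.6 to 114.8 CPM, and 76.1 ± 14.4 CPM in the 30 kept mice of 10 months. The ages overlapped, and 24 of 30 kept mice of 10 months were above the 6-month mean of their sex. Of the 4 members mir-214 alone was called (log2 difference 0.18 ± 0.07 SE, edgeR adjusted p 0.0241), where 54.1% of 390 hairpins were called. mir-199b had 12.7 ± 5.81 CPM at 6 months and 17.1 ± 8.12 at 10 months (17.0 ± 8.31 in the kept mice), a log2 difference of 0.33 ± 0.16 with an edgeR adjusted p of 0.0699. mir-199a-2 (0.15 ± 0.08, edgeR adjusted p 0.146) and mir-199a-1 (0.02 ± 0.07, 0.849) were not called.

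The call of mir-214 with age was not firm. With DESeq2 size factors its log2 difference was 0.14 (adjusted p 0.0566), with the DESeq2 test 0.14 (0.0536), and with the mir-199 hairpins summed 0.13 (0.0973). It was also lost when any 1 of 5 libraries was left out, with these log2 differences and edgeR adjusted p. Among the 10-month males they were 0.12 and 0.125 (replicate 4 of the Q20 line's WT mice), 0.12 and 0.109 (Q50 replicate 4), 0.13 and 0.0947 (Q20 replicate 2) and 0.13 and 0.0815 (Q20 replicate 4). For female replicate 3 of the Q50 line's WT mice at 6 months they were 0.13 and 0.101. mir-199b was called without any 1 of 7 other libraries (log2 difference 0.37 to 0.38, adjusted p 0.0319 to 0.0489). These were Q20 female replicate 4 and Q50 female replicate 2 of 10 months, Q20 male replicates 2 and 4 of 6 months, and, among the male WT mice of the Q50 line, replicates 2 and 4 of 10 months and replicate 4 of 6 months. The lane tag was not in this fit, and no source used here states that the ages were sequenced together, so age and sequencing run cannot be told apart.

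From mouse to mouse within a group, mir-199a-1 and mir-214 moved together, and the other pairs less closely. After the mean of each of the 24 groups was taken from log2(CPM + 1), mir-199a-1 and mir-214 were correlated with a Pearson r of 0.89 and a Spearman rho of 0.88 over 96 libraries. The values were 0.91 and 0.90 over the 48 libraries of 6 months and 0.86 and 0.86 over the 48 of 10 months. Without the 2 libraries farthest from the median of mir-199a-1 the Pearson correlation was 0.88 (n = 94), and without the libraries that stood apart it was 0.90 (n = 92). The points share libraries and their totals, and with TMM-scaled totals the value was 0.86. These correlations are descriptions.

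Whether the hairpins 5444 bases apart are more alike cannot be told here, since mir-199a-1 and mir-199a-2 share both mature strands. mir-199a-2 and mir-214, both within Dnm3os, had a Pearson correlation of 0.54, beside 0.55 for mir-199a-1 and mir-199a-2, 0.60 for mir-199a-2 and mir-199b, 0.65 for mir-199b and mir-214, and 0.73 for mir-199a-1 and mir-199b. At 10 months alone mir-199a-2 and mir-214 had 0.45 and mir-199b and mir-214 had 0.43, so the order of these pairs depends on the libraries taken. The difference between these correlations was not tested, and the split of the mir-199 reads enters each of them. The sum of the mir-199 hairpins had 0.90 with mir-214.

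The deviations were largest for mir-199b, with a pooled SD between mice of 0.58 on the log2 scale, larger than in 93.3% of the 209 hairpins with a mean of at least 10 CPM. mir-199b was the least abundant member, so counting error and the split of the mir-199 reads enter this SD. Hairpins of like abundance were not compared. The SD was 0.28 for mir-199a-1, 0.32 for mir-214 and 0.34 for mir-199a-2, beside a median of 0.24. Among the 205 other hairpins of at least 10 CPM, those closest to both mir-199a-1 and mir-214 by Spearman correlation were MI0000237 (0.78 and 0.79), MI0004636 (0.78 and 0.68) and MI0000169 (0.68 and 0.72), where 95% of hairpins were below 0.59 and 0.54. By the same measure the member mir-199b was at 0.66 and 0.59, and mir-199a-2 at 0.51 and 0.50, below these 95% points. The closest to mir-199b were MI0000403 (0.69), MI0000243 (0.66) and MI0000169 (0.59), and the closest to mir-199a-2 were MI0000223 (0.63), MI0005450 (0.58) and MI0021923 (0.55). Their names are not paired with the accessions in the tables used here.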

How the data were processed

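MicroRNA was measured in 96 mouse livers. Per the study's methods, total RNA was extracted with the Qiagen miRNeasy kit, enriched for small RNA and sequenced as single-end strand-specific reads, and the authors clipped the reads, placed them with STAR on mm10 and counted them with HTSeq. The submitters' processing notes name CASAVA 1.8.2. The methods name HTSeq and do not say why the deposited values of the mir-199 hairpins were not whole numbers. No source used here names the hairpin annotation release. Estimated counts, not normalized, were deposited in 1 table, and the authors' FPKM in another, which served here for levels per length and hairpin lengths. Since whole counts had been planned for, estimated counts were rounded before testing.

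Members and lists were chosen with earlier results of these data known. Groups came from the labels. Hairpins reaching 1 CPM in 8 or more libraries were tested in R 4.3.3 by the quasi-likelihood F test of edgeR 4.0.16 (TMM scaling, Benjamini-Hochberg over all hairpins tested, threshold 0.05), with sex and lane tag as covariates, per age. Age and the interaction were fitted without the lane tag. CAG length was 7 for WT. Libraries with a Z.k under -5, 4 at 10 months, were left out. Named hairpins are the 4 members and the 3 hairpins closest to each by Spearman correlation. The planned lists of companion hairpins and cell type markers need names and were not run. Alternatives were DESeq2 1.42.0, its size factors in edgeR, no abundance filter, all libraries kept, no lane tag, unrounded counts, summed mir-199 hairpins, a replicate block, WT or Q20 alone as controls, all genotypes for age, and each library left out in turn. The labels give separate mice as replicates. Python 3.11.15 drew the figures. The tests were checked on simulated data with changes of 1.25, 1.5 and 2-fold. For Q92 against controls at 6 months, 46.7%, 54.5% and 90% of these changes were recovered, with 2 false calls. Of the 382 simulated hairpins tested there, 30, 22 and 30 carried these changes, whereas 0.267% of hairpins were called in the data. With many true changes an adjusted p under 0.05 is reached more easily, so the recovered shares can be higher than in the data. For sex at 6 months the shares were 39.4%, 86.7% and 91.3%, with 0 false calls. For age they were 73.1%, 77.8% and 96.6%, with 2 false calls.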

Additional observations from a re-analysis of the deposited data

How the results depend on the processing

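The tested comparisons other than age called 0 members under each alternative that was run, leaving out each of 92 libraries in turn included. For age, the count of members called was 1, and it was 0 with DESeq2 size factors in edgeR, 0 with the DESeq2 test, 3 with all genotypes (which adds the mice that chose the members) and 0 to 2 with 1 library left out. The share called over all hairpins was kept for the main fits alone, where it was 54.1% of 390 for age. No count of members under an alternative is therefore read as a result about them. With all genotypes, mir-199b had a log2 difference of 0.59 and mir-199a-2 of 0.21, given as a description without a test. Nothing is read from these values or from the count of 3, since the added Q92 and Q140 mice of 10 months chose the members. In Q92 at 10 months, the median log2 difference of the members ran from 0.24 to 0.39 with 1 library left out, and in Q140 from 0.36 to 0.44. mir-199b has no value of its own once the mir-199 hairpins are summed, and the sum gave 0.36 for Q92. Summing therefore gave no count of members.

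Replicate numbers were shared between groups, and no pairing by number was seen over all groups of the same age and sex together. The median correlation of deviations was -0.0035 between libraries of the same number and 0.0044 between those of other numbers. Of the same-number pairs, 74 of 240 were above 0.1, and this share was not kept for other numbers. Pairs within a line (Q20 or Q50 with its WT) were not taken apart, so pairing among them was not tested. With a replicate block the median log2 difference of the members was 0.32 for Q92 and 0.40 for Q140 at 10 months and 0.31 for CAG length, and the count of members called was 1 for age and 0 in the other tested comparisons. The block changed no call. Counting error weighs most on mir-199b, and the totals limit what can be seen in it.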
